A study of Danio rerio with 12 samples.

Results

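The comparison described here set 6 pools of zebrafish embryos kept with stress metabolites (3 pools each of the treatments SM and TS+SM) against 6 pools kept in fresh medium (3 pools each of C and TS), with temperature held as a factor in the model. These are all 12 pools of the series, and the members were chosen by the medium that the sample labels give. In SM, embryos developed at a constant 27°C in medium taken from other embryos that had been through the heat cycles on the day before. In TS+SM, embryos were given the same medium and were themselves heated in steps that peaked at 32°C, for 19 cycles in 24 h. C embryos had fresh medium at 27°C and TS embryos had fresh medium with the heat cycles. All embryos were wild type of the AB line, were kept singly in wells in the dark from the blastula period, and were sampled after 24 h, at 1 dpf (day post fertilization). Each library was made from polyA RNA of 20 pooled whole embryos, so a change in the number of cells of a type and a change in RNA per cell cannot be told apart. The reference medium was fresh, not conditioned by unheated embryos, so products of heated embryos and products of any embryo cannot be told apart either. The average weights both temperatures equally: it is the mean of the log2 fold change (LFC) of SM vs. C and of the LFC of TS+SM vs. TS.

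Fish embryos and larvae release metabolites into the water around them, and chemical cues of this kind can reach other embryos through the chorion and the skin. At this stage the outer surface of a zebrafish embryo is the periderm, a flat epithelium rich in keratins and in calcium-binding annexins, with ionocytes scattered in it and a basal layer under it. Cells that meet harmful compounds or heat commonly respond through heat shock proteins, the unfolded protein response, glutathione enzymes and, for some small molecules, aryl hydrocarbon receptor targets such as the cytochrome P450 enzyme of the CYP1A type. No transcript is known that marks the presence of stress metabolites, so the medium given by the labels could not be checked in the counts. The whole-embryo label was met by markers of lens and skin in every pool, with summed crystallin levels of at least 134 CPM (counts scaled to library size) and keratin levels of at least 19693 CPM.

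Counts on genes lay between 19280188 and 60239167 per library in TS+SM and between 18764434 and 25065103 in SM, against 24254412 to 26430586 in C and 21340207 to 31663431 in TS. The log2 totals differed by -0.06 between pools with SM and pools in fresh medium (exact two-sided permutation test within temperatures, 400 splits, P = 0.89). On log2 CPM, the medium carried 9.73% of the sum of squares over the 18688 genes tested, temperature 9.65%, their interaction 3.83% and the spread among pools of the same treatment 76.8%. The mean square of the medium was 1.01 times that of the pools within treatments. The first principal component, 49.7% of the variance, had the pools TS 3 (99.99), C 3 (75.3) and TS+SM 3 (47.0) at its upper end and TS+SM 1 (-75.2) at its lower end. C 3 and TS 3 are both in fresh medium, and counts are therefore also given with these 2 pools left out, an alternative added after seeing the data. In the titles, every replicate 3 pool has a higher RNA sample number than every replicate 1 or 2 pool. The labels do not say what that number marks. With C 3 and TS 3 left out, the replicate 3 pools that remain, SM 3 and TS+SM 3, are both with SM. In that setting anything particular to replicate 3 lies on the SM side only, and cannot be fully told apart from the medium. The replicate pools carry no label of separate spawnings, so P values measure the spread between these pools.

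No gene passed the test for the averaged effect of SM. edgeR's quasi-likelihood test, adjusted by Benjamini-Hochberg, called 0 of 18688 genes at an adjusted P of 0.05 or less (0%), and the smallest adjusted P was 0.802. At an unadjusted P under 0.05 there were 370 genes higher with SM (1.98%) and 343 lower (1.84%), and at an unadjusted P under 0.01 there were 51 higher (0.273%) and 22 lower (0.118%). DESeq2 called 1 of 27606 genes (0.00362%), *si:ch211-214b16.2*. In the same edgeR fit, heat averaged over both media called 159 genes (0.851%), so calls were possible with 6 pools against 6. DESeq2 called 1 gene in SM vs. C and 0 in TS+SM vs. TS. Within each temperature edgeR also called 0 genes, and 396 genes (2.12%) reached an unadjusted P under 0.05 for SM vs. C, 278 higher (1.49%) and 118 lower (0.631%). For TS+SM vs. TS the number was 271 (1.45%), 120 higher (0.642%) and 151 lower (0.808%). The interaction of SM and heat called 0 genes by edgeR, with 171 at an unadjusted P under 0.05 (0.915%), and 2 by DESeq2 (0.00724%). Both pairs of treatments kept their pools apart in the same direction for 68 genes (0.364%), 41 with higher counts in SM and TS+SM (0.219%) and 27 with lower counts (0.144%). With C 3 and TS 3 left out, edgeR called 0 genes and 297 and 104 genes were higher and lower at an unadjusted P under 0.05. Without TS+SM replicate 3 alone, those counts were 668 and 1192, again with 0 called.

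How large an effect these data leave possible was read from each gene's 95% interval, which covers that gene alone and is not adjusted for the number of genes. The median half-width was 0.43 on the log2 scale, a factor of 1.35. The whole interval lay within 1.5-fold of no change (LFC of 0.58) for 8707 genes (46.6%), within 2-fold for 13475 (72.1%) and within 4-fold for 17393 (93.1%). Precision followed the level of the gene. Of 7515 genes with a mean of 200 to 2000 normalized counts, 95.3% were held within 2-fold and 76.6% within 1.5-fold. Of 1678 genes at 2000 or more, 95.2% were held within 2-fold, so more reads did not narrow the interval further. Of 2842 genes under 20 normalized counts, 16.22% were held within 2-fold, and a change of 2.68-fold was still inside the interval for the middle gene of this class. In the averaged effect a typical well-expressed gene was thus bounded at 1.34-fold, whereas a rare transcript could have changed several-fold without being seen. These bounds do not hold for 1 temperature alone, since opposite changes cancel in the average. The median half-width over all genes was 0.61 for SM vs. C and 0.61 for TS+SM vs. TS.

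**Figure D1:**
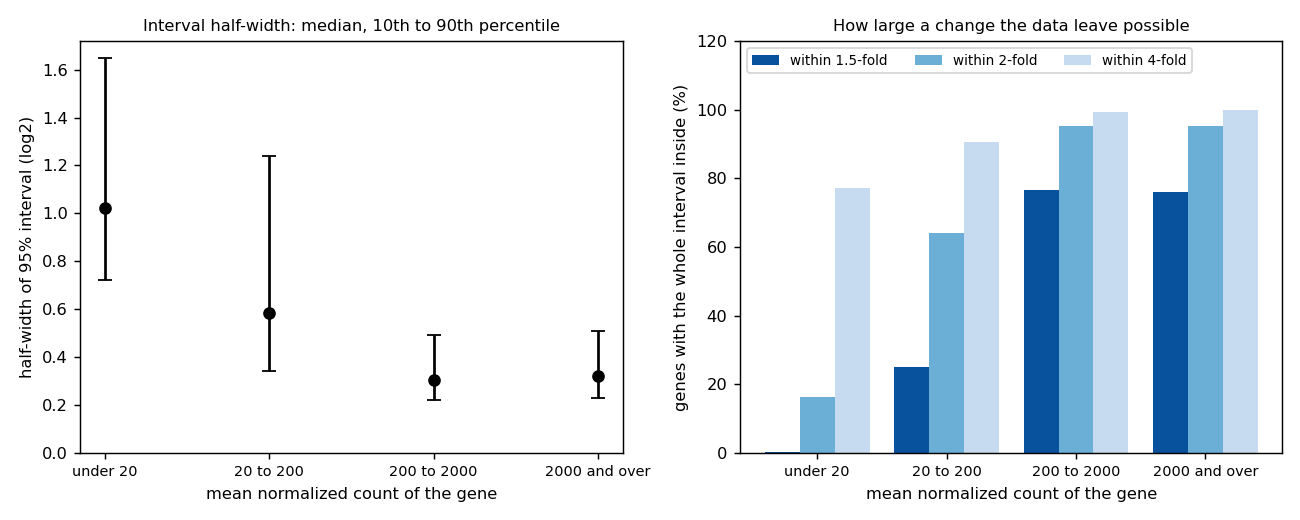
The left panel plots the half-width of the 95% interval of the averaged LFC (log2 scale) by the gene's mean normalized count, with the median as a point and the 10th to 90th percentile as a line, and the right panel the percentage of genes whose whole interval lies within 1.5-, 2- or 4-fold of no change. The share within 2-fold is 16.22% under 20 counts and 95.3% at 200 to 2000 counts.

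The 8 genes with the smallest unadjusted P among those higher with SM, and the 8 among those lower, were chosen on these values, which are therefore a description, and all 16 had an adjusted P of 0.802. Of these, *scel*, CABZ01074130.1, *cryba1b*, *arl11*, *chrng*, *si:ch211-214b16.2* and *scamp5a* also stand in the study's list for SM vs. C, which was chosen on the SM and C pools. *scel* (ENSDARG00000034677), which encodes sciellin, a protein of the cornified envelope in mammalian skin, had the smallest P among the higher ones, with 729.5, 629.6 and 789.5 normalized counts in SM pools, against 532, 435 and 499.8 in C, and 785, 695 and 633 in TS+SM pools, against 553, 506 and 546 in TS. No pool with SM overlapped a fresh-medium pool, and the averaged LFC was 0.47 (95% interval 0.26 to 0.69, unadjusted P = 0.000464). *arl11* (ENSDARG00000036637), a small GTPase of the ADP-ribosylation factor family, had 192, 184 and 211 normalized counts in SM pools, against 136, 122 and 105 in C, and 215, 183 and 149 in TS+SM pools, against 143, 119 and 118 in TS. The groups were again apart at both temperatures, with an LFC of 0.61 (95% interval 0.32 to 0.90, unadjusted P = 0.000647). *zgc:85932* (ENSDARG00000098239) had 551, 531 and 792 normalized counts in SM pools, against 521, 416 and 301 in C, and 829, 596 and 532 in TS+SM pools, against 419.7, 395 and 331 in TS, without overlap within a temperature and with an LFC of 0.69 (95% interval 0.32 to 1.06, unadjusted P = 0.0016). *rbbp8l* (ENSDARG00000087032) had 323, 263 and 408 normalized counts in SM pools, against 258, 246 and 203 in C, and 319, 368 and 411 in TS+SM pools, against 289, 221 and 215 in TS. Its pools with SM lay above the fresh-medium pools of the same temperature, with an LFC of 0.54 (95% interval 0.24 to 0.85, unadjusted P = 0.00217).

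*cryba1b* (ENSDARG00000053875), which encodes a beta-crystallin of the lens, had 849, 1071 and 1064 normalized counts in SM pools, against 593, 643 and 649 in C, and 2046, 1727 and 1817 in TS+SM pools, against 1719, 1593 and 1396 in TS. It was higher with SM at each temperature, by an average LFC of 0.46 (95% interval 0.24 to 0.67, unadjusted P = 0.000574), and the gap was 0.66 at 27°C and 0.25 under heat. *and1* (ENSDARG00000088514), an actinodin of the fin fold fibres, had 579, 774 and 923 normalized counts in SM pools, against 559, 492 and 443 in C, and 2473, 2353 and 1354 in TS+SM pools, against 1203, 1223 and 1420.4 in TS. Its pools were apart at 27°C and overlapped under heat, and the LFC was 0.65 (95% interval 0.29 to 1.00, unadjusted P = 0.00188). CABZ01074130.1 (ENSDARG00000105274) followed the same pattern, with 594 to 2068 normalized counts (median 979) in the SM and TS+SM pools, against 326 to 1222 (median 667) in the C and TS pools, and an LFC of 0.83 (95% interval 0.45 to 1.22, unadjusted P = 0.000472). The rare transcript ENSDARG00000096017 had 9.52 to 20.2 normalized counts (median 12.3) in the SM and TS+SM pools, against 4.06 to 8.75 (median 5.41) in the C and TS pools, and an LFC of 1.22 (95% interval 0.52 to 1.92, unadjusted P = 0.00255).

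Among the genes with lower counts, *chrng* (ENSDARG00000086647), the gamma subunit of the embryonic acetylcholine receptor of muscle, had 576, 662 and 611 normalized counts in SM pools, against 877, 863 and 767 in C, and 412, 431 and 513 in TS+SM pools, against 599, 599.9 and 638 in TS. The LFC was -0.44 (95% interval -0.64 to -0.24, unadjusted P = 0.000435), and it was -0.44 at 27°C and -0.44 under heat, while its counts were lower in the heated pools than in the unheated pools of the same medium. *map6b* (ENSDARG00000074073), a protein that binds and stabilizes microtubules, had 3.104, 4.76 and 7.72 normalized counts in SM pools, against 12.2, 9.72 and 30.8 in C, and 7.78, 5.16 and 9.70 in TS+SM pools, against 19.9, 14.9 and 39.2 in TS. Its LFC was -1.70 (95% interval -2.63 to -0.78, unadjusted P = 0.00175), with the highest values in C 3 and TS 3. *scamp5a* (ENSDARG00000018743), a membrane protein of secretory vesicles, had 28.6 to 60.6 normalized counts (median 35.9) in the SM and TS+SM pools, against 45.5 to 103 (median 63.6) in the C and TS pools, and an LFC of -0.82 (95% interval -1.36 to -0.28, unadjusted P = 0.00604). It too was highest in C 3 and TS 3. The others were *si:dkey-184p18.2* with an LFC of -0.63 (-1.02 to -0.24), SHISA2 with -1.92 (-3.12 to -0.72), *pcbp3* with -1.43 (-2.35 to -0.51) and NAIF1 with -1.20 (-1.99 to -0.42), and the last 3 had means under 20 normalized counts. As with *map6b* and *scamp5a*, the highest counts of *si:dkey-184p18.2*, SHISA2, *pcbp3* and NAIF1 were in TS 3. Names in capitals are those of the human counterpart, as the name table gives them. *si:ch211-214b16.2* (ENSDARG00000102593), which the study annotates as an ortholog of an intracellular bacterial sensor of the NOD family, had 0 counts in all 3 SM pools, against 104, 41.8 and 56.9 normalized counts in C, at least 54.0-fold lower when 3 counts over the SM pools are taken as the limit of detection. Under heat it had 30.5, 71.0 and 132 in TS+SM, against 13.3, 58.2 and 59.8 in TS, so its averaged LFC of -4.13 comes from the unheated pools alone and depends on the prior count.

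**Figure D2:**
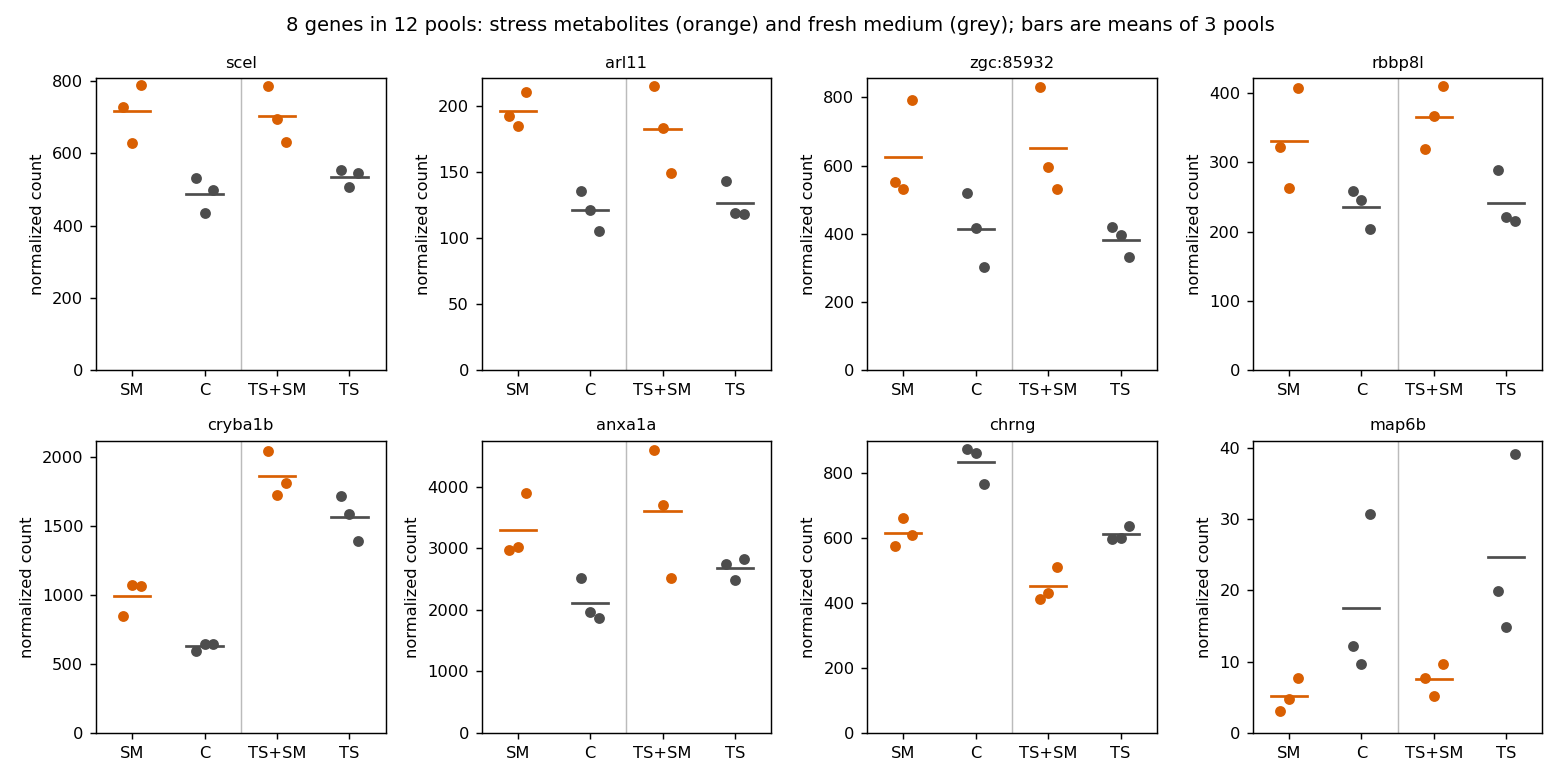
Normalized counts (linear axis from 0) of 8 genes in each of the 12 pools, with SM left of C and TS+SM left of TS, points for pools and bars for means of 3. For *scel*, *arl11*, *zgc:85932*, *rbbp8l*, *cryba1b*, *chrng* and *map6b* the points of the pools with SM and of the fresh-medium pools do not overlap within a temperature, and *anxa1a* overlaps under heat.

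The keratins were the list with the largest median in the averaged contrast. These intermediate filament proteins give the periderm and the basal epidermis their strength. Of 22 keratin genes counted, 19 were tested, 0 were called, 8 were higher and 0 lower at an unadjusted P under 0.05, against 1.98% and 1.84% of all genes, and the median LFC was 0.43, against -0.01 over all genes. Summed over the list they took 35527, 28416 and 38866 CPM in SM pools, against 26348, 21433 and 19693 in C, and 44775, 31426 and 22186 in TS+SM pools, against 29122, 27642 and 20229.6 in TS. In these sums all SM pools were above all C pools, whereas TS+SM 3 fell within the TS range. The median keratin was also read in log2 CPM relative to each gene's mean over all pools. By this measure TS+SM 3, at -0.34, was the lowest of all pools. TS+SM 1 and TS+SM 2 were at 0.64 and 0.15, against -0.26 to -0.05 in TS. *krt4* (ENSDARG00000017624), the most abundant keratin, a marker of the outer layer, had 368903 to 716328 normalized counts (median 528102) in the SM and TS+SM pools, against 295767 to 500356 (median 391449) in the C and TS pools, and an LFC of 0.45 (95% interval -0.03 to 0.93, unadjusted P = 0.065). *krt97* (ENSDARG00000000212) had the smallest P of the list, with 6926, 5736 and 6805 normalized counts in SM pools, against 3994, 4233 and 3551 in C, and 8164, 7168 and 4594 in TS+SM pools, against 5849.5, 5529 and 4375 in TS. Its LFC was 0.53 (95% interval 0.21 to 0.85, unadjusted P = 0.00349), without overlap at 27°C and with overlap under heat. *cyt1* (ENSDARG00000092947) had 52603 to 122914 normalized counts (median 79886) in the SM and TS+SM pools, against 41506 to 60511 (median 51006) in the C and TS pools, and an LFC of 0.70 (95% interval 0.22 to 1.18, unadjusted P = 0.00765). *krt92* had an LFC of 0.68 (0.21 to 1.15), *cyt1l* 0.64 (0.17 to 1.11), *krt17* 0.63 (0.16 to 1.1), *krt1-19e* 0.54 (0.15 to 0.93), *krt15* 0.49 (0.09 to 0.90) and *krt222* 0.26 (0.05 to 0.46). The keratins of simple epithelia were near no change, with 0.09 (-0.29 to 0.46) for *krt8* and -0.06 (-0.41 to 0.29) for *krt18a.1*, both held within 1.5-fold. The median was 0.58 at 27°C and 0.33 under heat. Since *krt92*, *cyt1*, *krt17*, *krt222* and *krt97* stand in the study's list chosen on the SM and C pools, the keratin values at 27°C are not independent evidence of their direction. The averaged count of 8 higher is fixed in part by that choice as well. Under heat, the unadjusted P (edgeR) of these 8 keratins ran from 0.084 for *cyt1l* to 0.35 for *krt222*. The keratin median without C 3 and TS 3 was 0.44 with 8 members higher at an unadjusted P under 0.05. Over single pools left out the median ranged from 0.29 without TS+SM replicate 1 to 0.56 without TS+SM replicate 3, where 14 of 19 were higher at that P. More of all genes were higher as well without TS+SM replicate 3, as given above.

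The annexins, which bind membrane phospholipids in the presence of calcium and are prominent in the periderm, also had more members higher than all genes did. Of 15 tested, 0 were called. At an unadjusted P under 0.05, 7 were higher and 0 lower, against 1.98% and 1.84% of all genes. The median LFC was 0.31, with 0.37 at 27°C and 0.18 under heat. Summed over the list, TS+SM 3 held 801 CPM, below the 835 to 938 CPM of the TS pools. TS+SM 1 and TS+SM 2, with 1383 and 991 CPM, were above them. *anxa1a* and *zgc:101785* stand in the study's list chosen on the SM and C pools, so the count of 7 is fixed in part by that choice. *anxa1a* (ENSDARG00000026726) had 2977, 3015 and 3897 normalized counts in SM pools, against 2523, 1958 and 1862 in C, and 4602, 3703 and 2517 in TS+SM pools, against 2751, 2485 and 2818 in TS. Its pools were apart at 27°C and overlapped under heat through TS+SM 3, with an LFC of 0.53 (95% interval 0.20 to 0.86, unadjusted P = 0.00416). All 4 annexin A1 paralogs lay close together, at 0.38 (0.07 to 0.69) for *anxa1b*, 0.50 (0.09 to 0.92) for *anxa1c* and 0.48 (0.15 to 0.81) for *anxa1d*. ANXA2 had 0.54 (0.15 to 0.93), *anxa5b* 0.31 (0.06 to 0.56) and *zgc:101785* 0.68 (0.23 to 1.12). Under heat, the unadjusted P (edgeR) of these 7 annexins ran from 0.063 for *anxa1d* to 0.38 for *anxa5b*. Without these pools of fresh medium, C 3 and TS 3, 6 annexins were higher and 1 lower at an unadjusted P under 0.05.

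Other lists of skin genes had medians nearer to 0. The counts at an unadjusted P under 0.05 in these and the later lists stand beside 1.98% higher and 1.84% lower of all genes. In a list of 23 adhesion, hemidesmosome and transcription factor genes of the epidermis, 1 was higher at an unadjusted P under 0.05, PPL (ENSDARG00000101043), the desmosomal linker periplakin, with 3893 to 5695 normalized counts (median 4621) in the SM and TS+SM pools, against 3543 to 4199 (median 3902) in the C and TS pools, and an LFC of 0.29 (95% interval 0.05 to 0.54, unadjusted P = 0.0221). E-cadherin (*cdh1*) had 0.20 (-0.00095 to 0.41), TP63, the transcription factor of basal keratinocytes, 0.19 (-0.02 to 0.41), and *epcam* 0.14 (-0.17 to 0.45), all held within 1.5-fold. Among 30 claudins of the tight junctions, 3 were higher and 0 lower at that P, with a median LFC of 0.04, and *cldn8.2* (ENSDARG00000040628) had the smallest P, with an LFC of 0.44 (95% interval 0.09 to 0.80, unadjusted P = 0.0183). Among 23 ionocyte genes 1 was higher, the sodium pump subunit *atp1a1a.2* (ENSDARG00000007739), at 0.35 (0.01 to 0.68), and the list's median was -0.03. None of 10 hatching gland genes passed an unadjusted P of 0.05. Among 78 genes for scramblases, flippases and lipid transfer proteins, 6 were higher and 1 lower at that P, with a median of 0.03. *stard14* (ENSDARG00000031929), a lipid-binding START protein, had the smallest P, with 351, 302 and 336 normalized counts in SM pools, against 302, 238 and 223 in C, and 343, 293 and 257 in TS+SM pools, against 263, 177 and 227 in TS, and an LFC of 0.40 (95% interval 0.11 to 0.69, unadjusted P = 0.0115). *xkr8.2*, a scramblase gene, had 10.17 to 46.3 normalized counts (median 13.1) in the SM and TS+SM pools, against 6.18 to 10.8 (median 9.4) in the C and TS pools, and an LFC of 1.06 (0.25 to 1.86). It stands in the study's list chosen on the SM and C pools, so its averaged value is fixed in part by that choice.

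Among other abundant classes, the ribosomal and mitochondrial ones had medians near that of the keratins. Those of fast muscle (-0.09), heat shock proteins with DnaJ (-0.05) and nuclear oxidative phosphorylation (0.02) were nearer to 0. Of 77 ribosomal protein genes, 76 had an LFC above 0, with a median of 0.36 and 0 at an unadjusted P under 0.05. Their sum was 311701, 229292 and 272269 CPM in SM pools, against 255008, 224204 and 166733 in C, and 435773, 293767 and 199930.0 in TS+SM pools, against 286741, 295893 and 144936 in TS. The 2 lowest pools were TS 3 and C 3, and the highest was TS+SM 1. The ribosomal median without C 3 and TS 3 was 0.14. The 13 protein genes of the mitochondrial genome had a median of 0.42 with 0 at an unadjusted P under 0.05, and SM 3 alone held 88527 CPM, against 28126 to 55038 in the other 11 pools. Without SM replicate 3 this median was 0.15. The 10 most abundant genes of each library took 1.39 percentage points more of the counts in pools with SM (exact two-sided permutation test within temperatures, P = 0.02, and 0.06 after Benjamini-Hochberg adjustment over 3 library measures). The part of these shifts in the keratin and annexin values was not tested.

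**Figure D3:**
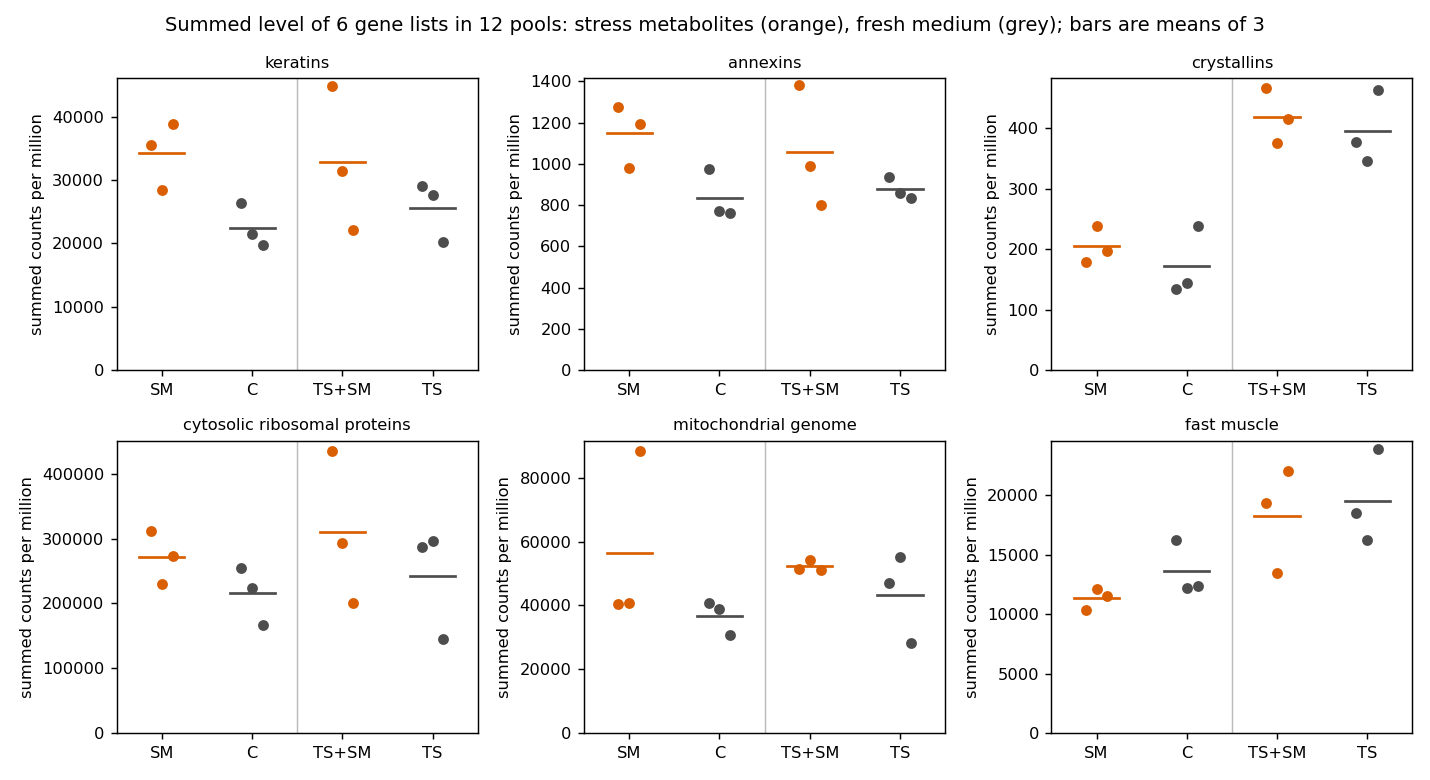
Summed level (CPM, linear axis from 0) of 6 gene lists in each pool, with SM left of C and TS+SM left of TS, points for pools and bars for means of 3. Keratins and annexins are higher in every SM pool than in every C pool and overlap between TS+SM and TS, and ribosomal protein genes are lowest in TS 3 and C 3.

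In the eye, 27 lens crystallins were tested of 57 in the table, 7 were higher and 0 lower at an unadjusted P under 0.05, and their median LFC was 0.19. *crygm2d18*, with a mean under 20 normalized counts, had an LFC of 1.34 (0.40 to 2.28) and *cryba1l1* of 0.27 (0.01 to 0.53), while CRYBB1 had -0.03 (-0.55 to 0.49). With C 3 and TS 3 left out the median was 0.45 with 14 of 27 higher at that P, and without SM replicate 2 or SM replicate 3 there were 2. Summed crystallin levels were 179 to 466 CPM over the 6 pools with SM, against 134 to 463 CPM in fresh medium, and in both media every unheated pool was below every heated one. Among 18 genes of the retina and optic cup none passed an unadjusted P of 0.05, and 14 were held within 1.5-fold. Of 27 genes of hair cells and the ear, 1 was higher, *otofa* (ENSDARG00000030832), the synaptic calcium sensor otoferlin, with 169, 107 and 161 normalized counts in SM pools, against 101, 94.3 and 86.7 in C, and 185, 152 and 162 in TS+SM pools, against 158, 157 and 129 in TS. Its LFC was 0.40 (95% interval 0.08 to 0.72, unadjusted P = 0.0182), and 0.63 at 27°C and 0.17 under heat. The share of this list under an unadjusted P of 0.05 was 3.70%, against 3.82% of all genes. *otofa* stands in the study's list chosen on the SM and C pools, so its averaged P is fixed in part by that choice.

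Muscle, blood and pigment lists had medians below 0. Of 35 fast muscle genes, 0 were higher and 4 lower at an unadjusted P under 0.05, with a median of -0.09. *myog* (ENSDARG00000009438), the transcription factor myogenin, had 1293, 979.6 and 751 normalized counts in SM pools, against 1521, 1097 and 1107 in C, and 438, 468 and 421 in TS+SM pools, against 621, 654 and 694 in TS. Its LFC was -0.44 (95% interval -0.74 to -0.14, unadjusted P = 0.00807), with overlap at 27°C and none under heat, while MYOD1 had -0.07 (-0.45 to 0.32). The thin filament genes *actc1a* and *tpma* had -0.87 (-1.62 to -0.11) and -0.60 (-1.19 to -0.0045), and *actc1b*, the most abundant gene of the list, -0.40 (-0.88 to 0.08). Each of these thin filament genes had its highest count in TS 3. Without TS+SM replicate 3, 8 muscle genes were lower at that P, and without TS+SM replicate 1, 1 was. More of all genes were lower as well without TS+SM replicate 3, as given above. Over single pools left out the list's median ranged from -0.19 to 0.04 (without C replicate 1). Of 17 embryonic blood genes 13 had an LFC below 0, with a median of -0.28 and only *alas2* (ENSDARG00000038643), the first enzyme of heme synthesis in erythroid cells, under an unadjusted P of 0.05. It had 745 to 1198 normalized counts (median 885) in the SM and TS+SM pools, against 925 to 2143 (median 1198) in the C and TS pools, the highest value in TS 3, and an LFC of -0.44 (95% interval -0.85 to -0.02, unadjusted P = 0.0399). Summed blood levels were 3134 CPM in TS 3, against 952 to 1855 CPM in the other pools. Of 21 pigment cell genes 16 were below 0 and 2 were lower at that P. FOXD3 (ENSDARG00000021032), a neural crest transcription factor, had an LFC of -0.49 (95% interval -0.88 to -0.11, unadjusted P = 0.0167) and DCT, a melanin enzyme, -0.59 (-1.16 to -0.02), while SOX10 had -0.01 (-0.27 to 0.26). FOXD3 and DCT both had their highest counts in TS 3. Summed pigment levels were 629 CPM in TS 3, against 312 to 511 CPM in the other pools. The medians of the blood and pigment lists without TS 3 are not given here. Neurons and neural progenitors (30 genes), heart (17), hox genes (48), the segmentation clock (24) and replication with cell cycle (35) had 0 members under an unadjusted P of 0.05, where 3.82% of all genes were. Of the neural genes 76.7% and of the cell cycle genes 71.4% were held within 1.5-fold.

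No list held a called gene, those of the classical stress pathways included. Several main effectors of these pathways had narrow intervals, as well-expressed genes commonly had. Of 80 genes for heat shock proteins and DnaJ cochaperones, 0 were higher and 5 lower at an unadjusted P under 0.05, with a median LFC of -0.05. Those 5 are 6.25% of the list, against 3.82% of all genes in either direction. The heat-inducible *hsp70.3* (ENSDARG00000021924) had 102, 86.9 and 78.3 normalized counts in SM pools, against 127, 106 and 79.3 in C, and 267, 257 and 242 in TS+SM pools, against 327, 311 and 304 in TS. Its SM and C pools overlapped and its TS+SM pools lay below all TS pools, and the upper end of its interval was a factor of 1.02, with an LFC of -0.26 (-0.55 to 0.03). *hsp70l* had -0.31 (-0.90 to 0.27), the constitutive *hspa8* 0.12 (-0.31 to 0.55) and HSP90AB1 0.06 (-0.36 to 0.48). *hsp90aa1.1* (ENSDARG00000010478), the Hsp90 of developing zebrafish muscle, was among the lower ones, at -0.57 (95% interval -1.1 to -0.04, unadjusted P = 0.0367), with its highest count in TS 3. The smallest P of the list was that of the cochaperone gene *dnajb2*, at -0.72 (95% interval -1.27 to -0.17, unadjusted P = 0.0149), also highest in TS 3, and *hspb1* had -0.47 (-0.96 to 0.02). For the unfolded protein response, 0 of 28 genes passed an unadjusted P of 0.05 and 23 were held within 1.5-fold, among them the chaperone *hspa5* at -0.14 (-0.41 to 0.13), XBP1 at -0.13 (-0.38 to 0.13) and ATF3 at -0.02 (-0.49 to 0.46). DDIT3, which promotes cell death in this response, had a wide interval, at -0.43 (-1.77 to 0.92).

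Of 51 glutathione and peroxide enzymes 2 were higher and 1 lower at an unadjusted P under 0.05, with a median of 0.04. *ggact.3* (ENSDARG00000070579), named for a gamma-glutamylamine cyclotransferase, had 57.4, 65.5 and 45.2 normalized counts in SM pools, against 23.3, 15.6 and 34.5 in C, and 3.59, 1.29 and 1.21 in TS+SM pools, against 0, 0 and 0.687 in TS. It was higher with SM at 27°C, and under heat its counts were near the limit of detection in both media, so that its LFC of 1.84 rests on few reads there. The other higher gene was *gsta.1*, a glutathione transferase gene, at 0.58 (0.05 to 1.11), and the lower one was HMOX1, heme oxygenase, at -0.55 (-1.07 to -0.03), with its highest count in TS 3. Among the genes of this list, NQO1 had 0.01 (-0.19 to 0.22) and GCLM -0.02 (-0.25 to 0.21), and *gpx1a* had 0.05 (-0.42 to 0.53) and CAT 0.11 (-0.23 to 0.45). None of 13 genes of the aryl hydrocarbon response passed an unadjusted P of 0.05. CYP1A1 (ENSDARG00000098315), its usual reporter, had 78.7 to 139 normalized counts (median 104) in the SM and TS+SM pools, against 63.5 to 161 (median 75.5) in the C and TS pools, and an LFC of 0.14 (95% interval -0.45 to 0.72, unadjusted P = 0.617), so that a change beyond 1.65-fold upward lay outside its interval. CYP1B1 had -0.09 (-0.51 to 0.34). Of 29 hypoxia genes, 1 was lower at that P, SLC2A1 (ENSDARG00000001437), with 203 normalized counts in TS 3 and at most 45.7 in any other pool. Its LFC was -1.52 (-3.03 to -0.01), and 0.18 with C 3 and TS 3 left out. EGLN3, an oxygen sensor, had 0.17 (-0.17 to 0.52) and *ldha* 0.14 (-0.13 to 0.40). None of 17 genes of the stress hormone axis passed, with NR3C1, the glucocorticoid receptor, at -0.25 (95% interval -0.49 to 0.0023, unadjusted P = 0.0518), its target *sgk1* at -0.01 (-0.22 to 0.20) and FKBP5 at 0.17 (-0.39 to 0.73). Among genes of cell death and growth arrest, *mdm2* had -0.04 (-0.43 to 0.35), BAX -0.04 (-0.27 to 0.20) and *casp8* 0.15 (-0.20 to 0.51), while *cdkn1a* had the wide interval of -0.48 (-1.90 to 0.94).

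Many immune genes were too rare to test, and 55 of 165 cytokine and chemokine genes passed the filter on low counts. Of 27 toll-like, NOD-like and RIG-like receptor genes and their adaptors, 1 was higher and 3 lower at an unadjusted P under 0.05, and 5 were held within 1.5-fold (18.5%, against 46.6% of all genes). The lower ones were *si:ch211-214b16.2*, described above, *si:ch211-214b16.4* and *nlrc6*. Of these, *si:ch211-214b16.4* was lower with SM at 27°C only, with 0, 1 and 1 reads in SM pools, against 40, 25 and 19 in C. Its LFC was -4.86 at 27°C, on SM counts near the limit of detection, and 0.84 under heat. The higher one was *tlr18*, with 76.1, 69.0 and 84.9 normalized counts in SM pools, against 48.6, 22.4 and 44.8 in C, and 35.9, 67.1 and 60.6 in TS+SM pools, against 52.1, 54.2 and 49.5 in TS, and the gap was 0.99 at 27°C and 0.06 under heat. *tlr18* and *si:ch211-214b16.4* stand in the study's list chosen on the SM and C pools, so their averaged P values are fixed in part by that choice. None of 55 cytokine and chemokine genes passed that P, and *il1b* had 4.66 to 26.7 normalized counts (median 11.1) in the SM and TS+SM pools, against 6.53 to 14.9 (median 11.0) in the C and TS pools, and an LFC of 0.20 (-0.69 to 1.1). Of 33 complement and acute phase genes, 1 was lower, STAT3 at -1.41 (95% interval -2.82 to -0.0018, unadjusted P = 0.0498), with its highest values in TS 3 and C 3, while *c3a.1* had -0.13 (-0.59 to 0.34) and *c9* 0.18 (-0.17 to 0.54). Among 19 myeloid genes none passed, and *cybb* (ENSDARG00000056615), the phagocyte oxidase subunit, had 38.3 to 132 normalized counts (median 62.9) in the SM and TS+SM pools, against 35.1 to 63.2 (median 47.5) in the C and TS pools, with an LFC of 0.98 at 27°C and -0.11 under heat. *cybb* too stands in the study's list.

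Lists for the extracellular matrix and its sugars had medians near 0. Of 70 genes for glycosaminoglycan and keratan sulfate synthesis, 54 had an LFC below 0, with a median of -0.11, and 2 were lower at an unadjusted P under 0.05. EXT2, a heparan sulfate polymerase, had the smallest P, at -0.29 (95% interval -0.56 to -0.02, unadjusted P = 0.0401). The median without C 3 and TS 3 was 0.01 and 35 of 66 were above 0. Of 32 proteoglycans and mucins, 2 were higher and 1 lower at that P, with *prg4a* (ENSDARG00000010482), the lubricant proteoglycan, at 55.9, 77.4 and 139 normalized counts in SM pools, against 42.6, 36.9 and 37.3 in C, and 65.2, 80.0 and 49.7 in TS+SM pools, against 73.9, 40.6 and 40.5 in TS. Its LFC was 0.78 (95% interval 0.19 to 1.36, unadjusted P = 0.0131). *prg4a* stands in the study's list chosen on the SM and C pools, so this P is fixed in part by that choice. Of 50 collagens 2 were higher, among them *col21a1* (ENSDARG00000025320) at 1.05 (95% interval 0.25 to 1.84, unadjusted P = 0.0142). Anion channels and exchangers (37 genes) had 1 lower, and glycolysis (31) and the nuclear genes of oxidative phosphorylation (93) had 0 and 1 lower, with 64.5% and 75.3% of members held within 1.5-fold. The remaining lists (endothelium, notochord, yolk syncytial layer, germ cells, ferritins and iron handling, proteasome, chemosensory receptors and circadian clock) had 1 or 2 members each under an unadjusted P of 0.05.

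**Figure D4:**
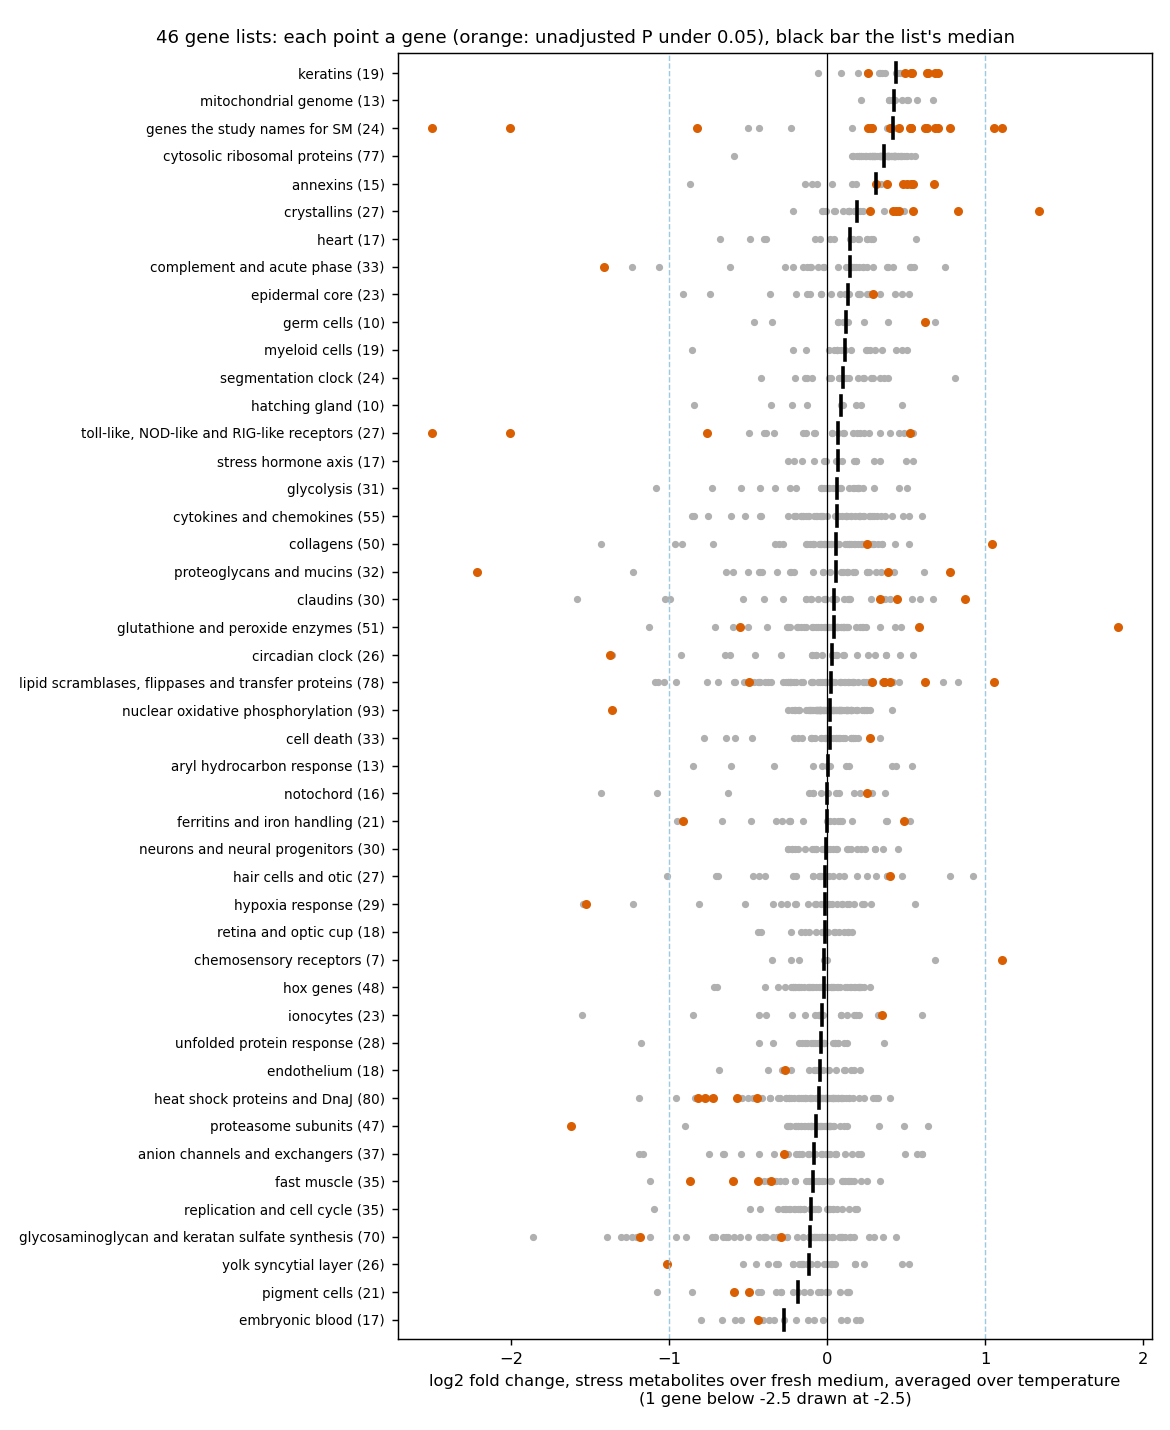
Averaged LFC (log2 axis, SM over fresh medium) of every tested gene in 46 lists, sorted by the list's median (black bar), with the number tested in parentheses, orange points for an unadjusted P under 0.05, dashed lines at 2-fold and 1 gene below -2.5 drawn at -2.5 in both of its lists. Of the 46 medians 40 lie within 0.2 of 0, and no point has an adjusted P of 0.05 or less by edgeR.

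A last list held 24 genes that the study discusses for SM or for TS+SM. All but *ora3* and *olfcb1* were chosen there on the SM and C pools. For those chosen so, the values at 27°C are no independent evidence, and for most of them only the heated pools add to it. The study also named *cryba1b*, *tcima*, *best1*, *fthl28* and *ggact.2* as changed in both TS and SM, each compared with C. The TS pools thus took part in the choice of these genes, so their heated values are not independent of it either. The study named *ora3* for TS+SM and *olfcb1* for TS+SM compared with SM, so the TS+SM pools took part in their choice. In the averaged contrast 15 were higher and 3 lower at an unadjusted P under 0.05, but this share is fixed in part by the choice. Several had pools that were apart at 27°C and overlapped under heat, and edgeR called the interaction for none of them. *tcima* had 247, 204 and 205 normalized counts in SM pools, against 133, 146 and 150.1 in C, and 278, 245 and 235 in TS+SM pools, against 242, 253 and 295 in TS, which were apart at 27°C and overlapped under heat. *krt17* had 16125, 9926 and 16516 normalized counts in SM pools, against 7063, 6624 and 8126 in C, and 9652, 6097 and 4070.0 in TS+SM pools, against 6410.4, 5681 and 4059 in TS, and the LFC was 0.96 at 27°C and 0.30 under heat. *fthl28*, a ferritin heavy chain gene, had 85.4, 85.7 and 79.4 normalized counts in SM pools, against 34.5, 20.4 and 26.1 in C, and 47.9, 77.4 and 46.1 in TS+SM pools, against 149.7, 137 and 26.8 in TS, higher with SM at 27°C, while TS pools held both the highest values and the lowest one of the heated pools. *best1* (ENSDARG00000078331), an anion channel of the bestrophin family, had 17.1, 86.9 and 32.0 normalized counts in SM pools, against 7.09, 9.72 and 1.86 in C, and 6.58, 11.6 and 4.85 in TS+SM pools, against 50.2, 65.0 and 19.2 in TS. It was above C in every SM pool and below TS in every TS+SM pool, so the average of 0.16 (-0.94 to 1.26) hides opposite differences (interaction by edgeR, unadjusted P = 0.000246 and adjusted P = 1.00). *ggact.2* had 96.2, 114 and 91.5 normalized counts in SM pools, against 42.6, 38.9 and 21.4 in C, and 0, 0 and 0 in TS+SM pools, against 0.947, 0 and 0.687 in TS. Under heat both media were under the limit of detection, so no direction is read from its averaged LFC. *olfcb1*, an olfactory receptor gene, had an LFC of 0.29 at 27°C and -0.75 under heat. *chs1*, a chitin synthase gene, had an LFC of 1.62 at 27°C and -0.75 under heat. For *chst2b*, a sulfotransferase gene, the LFC was -1.06 at 27°C and 0.20 under heat. *ora3*, another olfactory receptor gene, had an LFC of 1.96 at 27°C and 0.25 under heat. The *ora3* value at 27°C rests on few reads, with 2, 5 and 3 in SM pools, against 1, 1 and 1 in C, near the limit of detection. *bscl2l* (ENSDARG00000025912) had 317, 346 and 582 normalized counts in SM pools, against 204, 179 and 222 in C, and 650.2, 461 and 311 in TS+SM pools, against 506, 485 and 255 in TS, and *pitpnc1b* an LFC of 0.53 at 27°C and 0.04 under heat.

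The study's full list for SM vs. C held 79 genes, of which 76 were tested here. They were read in TS+SM vs. TS, which shares no pool with SM vs. C. In the heated pools 0 of 76 had an adjusted P of 0.05 or less, and 49 (64.5%) had the direction they had at 27°C, against 12795 of all 18688 genes (68.5%), a share of the listed genes that is below the share of all genes. The 56 genes higher in SM had a median LFC of 0.13 under heat, against 0.75 at 27°C, and 43 of them were above 0. Over all genes, 6120 of the 9005 higher at 27°C were above 0 under heat. Of the 20 lower in SM, 6 were below 0 under heat, against 6675 of the 9683 lower at 27°C over all genes. Of the 20, 8 had 3 or fewer counts in every SM pool, 4 of which had over 3 counts in every C pool. An unadjusted P under 0.05 under heat was reached by 4 genes in the direction seen at 27°C (*scel*, *arl11*, *chrng* and CABZ01074130.1) and by 4 in the opposite one (*zgc:113293*, *col28a2a*, *best1* and CU633479.2). Over all 18688 genes, 194 reached it in the direction seen at 27°C and 77 in the opposite one. With C 3 and TS 3 left out, 39 of 76 had the direction seen at 27°C, and the share of all genes in that setting is not given here.

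**Figure D5:**
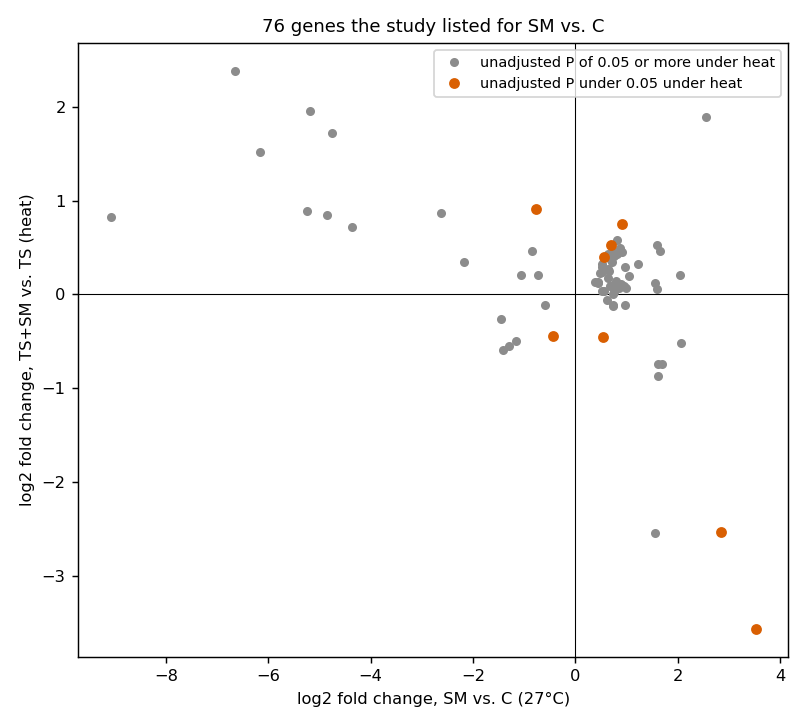
LFC under heat (TS+SM vs. TS, vertical axis, log2) against LFC at 27°C (SM vs. C, horizontal axis, log2) for the 76 tested genes of the study's list for SM, with orange points for an unadjusted P under 0.05 under heat. Of the 56 genes to the right of 0, 43 lie above 0 on the vertical axis, and of the 20 to the left, 6 lie below it.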

How the data were processed

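The deposited counts were made by the authors from strand-specific mRNA libraries with fastp 0.23.1, STAR 2.6.1 and the GRCz11 genome, per the submitters' processing notes, as whole read counts for 32520 genes in 3 columns after 4 summary lines, with no normalization. Column 4 was used. The summary lines were dropped, among them reads outside genes (9.42% to 12.2%). Multimapping reads (4.51% to 10.4%) are not in the counts, so genes with close paralogs (keratins, crystallins, annexins) are uncertain. Symbols came from the study for 228 identifiers, and a gene name table matched 29201 of the 32520.

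Tests used edgeR 4.0.16 in R 4.3.3 (TMM, filterByExpr, robust quasi-likelihood F test, two-sided) on 12 libraries with treatment as a factor of 4 levels, adjusted by Benjamini-Hochberg over 18688 genes, and the code was tested on simulated data. Normalized counts are scaled to the mean effective library size. Intervals are the LFC plus or minus the t quantile times the LFC's size over the root of F. Log2 CPM used a prior count of 2. Named genes are the 8 smallest P in each direction, the smallest P of each of 46 lists, and those the study names for SM. All others were chosen after their values were seen. Results for some genes are not reported here. The members, lists and tests were chosen with earlier results of these data known. Alternatives were DESeq2 1.42.0, its size factors, no filter, an additive model, a replicate block, the unstranded column, thinned libraries and each library left out, and 2 added later that leave out C 3 and TS 3, or these and TS+SM 3. Pools of a treatment differed by more than counting noise (chi-square per degree of freedom 4.82 to 169), so the spread between pools, and for rare genes depth, sets the precision.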

Additional observations from a re-analysis of the deposited data

Results flagged for a closer look

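DESeq2's test of the interaction passed for 2 genes that edgeR did not call. *si:ch211-214b16.2* had an adjusted P of 5.41e-05 by DESeq2 and of 1.00 by edgeR. Its counts were 0 in the 3 SM pools only, against 41.8 to 104 normalized counts in C, while TS+SM and TS overlapped. *best1* had an adjusted P of 0.00331 by DESeq2 and of 1.00 by edgeR, with its SM pools above C and its TS+SM pools below TS. The LFC of *si:ch211-214b16.2* was -9.08 at 27°C, which depends on the prior count, and 0.82 under heat, and that of *best1* was 2.85 at 27°C and -2.53 under heat. With 3 pools a treatment, single pools were not tested as outliers.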

How the results depend on the processing

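The count of genes at an adjusted P of 0.05 or less stayed at 0 for the averaged effect, SM vs. C, TS+SM vs. TS and the interaction in every edgeR alternative, leaving out each pool included (0 to 0), with 1 exception: the interaction called 1 gene (*fthl31*, adjusted P 0.0245 by edgeR) with C 3, TS 3 and TS+SM 3 left out, an alternative added after seeing the data. DESeq2 called 1 gene for the average, 1 for SM vs. C, 0 for TS+SM vs. TS and 2 for the interaction. For *si:ch211-214b16.2* the averaged LFC by DESeq2 was -3.68, with an adjusted P of 0.0267, and over all alternatives its adjusted P ranged from 0.0267 to 1.00. The share of genes held within 2-fold was 72.1%, ranged from 65.5% (without SM replicate 2) to 74.0% (without TS replicate 3) over pools left out, and from 49.1% with no filter or by DESeq2, where rare genes are kept, to 77.6% with C 3, TS 3 and TS+SM 3 left out. The number of study-listed genes with the direction seen at 27°C ranged from 39 (without TS replicate 3) to 53 (without TS+SM replicate 3).

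The averaged LFC turned in sign for few named genes, none of which edgeR called. *best1* had LFCs of -0.014 in thinned libraries, -0.28 without SM replicate 2, -0.03 without TS+SM replicate 2, -0.06 without C replicate 3, -0.03 without TS replicate 3 (up to 0.40 without C replicate 2), and -0.25 and -0.15 with 2 or 3 pools left out. *ggact.2* had 1.21 in the additive model, against -0.50 with treatment as the factor, and since its heated pools were under the limit of detection no direction is read from either. With C 3 and TS 3 left out, *calr3b* had 0.00180, PSMD2 0.16 and SLC2A1 0.18, and SLC2A1 0.18 with TS+SM 3 left out too. Counts at an unadjusted P under 0.05 in the averaged contrast ranged from 349 (without SM replicate 3) to 1860 (without TS+SM replicate 3) over pools left out.

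Same-numbered pools deviated together in some pairs of treatments and not in others, with correlations of 0.32, -0.21 and -0.30 for SM and C. The correlations were 0.48, 0.06 and 0.56 for TS+SM and TS. They were also all positive between C and TS (0.61, 0.29 and 0.79) and between TS+SM and C (0.62, 0.11 and 0.48). The same held between SM and TS+SM (0.50, 0.02 and 0.08). Between SM and TS they were 0.17, -0.44 and -0.31. The labels do not say what a replicate number marks, so the numbers were not taken as pairs. A fit with the replicate block called 0 genes for the average, with 534 higher and 608 lower at an unadjusted P under 0.05.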
